A study of Mus musculus with 8 samples.

Results

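Mitochondria keep their own set of protein-folding and protein-degrading machines, all encoded in the nucleus, and 10 of their genes are described here: Hspd1, Hspe1, Hspa9, Dnaja3, Trap1, Lonp1, Clpp, Clpx, Afg3l2 and Yme1l1. They were taken by name from the gene symbols of the count tables, and all 10 of 10 were found among 24063 genes. RNA was sequenced from tubuloids, which are tubule-like structures grown in Matrigel from fragments of postnatal mouse kidney. The comparison asked which transcripts differed soon after Pkd2, the gene for polycystin-2 that is mutated in a form of polycystic kidney disease, was targeted by an inducible Cre.

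All 8 cultures carried the same alleles, Pkd2fl/fl Pax8rtTA TetOCre mTmG, and were labelled as kidney at postnatal day 7 to 10, although the methods gave a younger range. The floxed Pkd2 alleles are cut by a tetracycline-responsive Cre, the Pax8 promoter limits its transactivator to renal epithelium, and mTmG is a membrane reporter that turns from red to green after Cre has acted. Doxycycline (DOX, 4 libraries) or its vehicle dimethyl sulfoxide (DMSO, 4 libraries) was given for 3 days from day 3 of culture, and RNA was taken on day 7. Cells that never expressed the transactivator keep Pkd2 in the DOX cultures. No culture received doxycycline without carrying Cre, so effects of the drug, of Cre and of Pkd2 loss cannot be told apart. Library numbers were not shared between groups and the comparison was unpaired, so the p-values measure the spread between these cultures.

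The machines fall into several groups. In the matrix, Hsp60 (Hspd1) with its lid Hsp10 (Hspe1) encloses and folds proteins, mitochondrial Hsp70 (Hspa9) with its J-protein partner Tid1 (Dnaja3) pulls in and folds incoming chains, and Trap1 is the mitochondrial Hsp90. LON (Lonp1) and ClpXP (the peptidase Clpp with the unfoldase Clpx) degrade matrix proteins, and the AAA proteases Afg3l2 and Yme1l1 work on either face of the inner membrane. When proteins misfold in mitochondria, cells can raise transcription of several of these genes, a programme called the mitochondrial unfolded protein response. Tetracyclines such as doxycycline act on mitochondrial ribosomes, which share ancestry with bacterial ones, and kidney tubule cells are rich in mitochondria.

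Each library held 63922677 to 102716313 summed counts, and the 10 genes had 1606 to 65838 counts each in any library, so counting error was small beside the spread between cultures. DMSO 20 and DOX 19 detected 13243 and 13599 genes, against 17054 to 17903 in the other 6 libraries. Each group held 1 male library. Normalised counts of Pkd2, the targeted gene, were 6128, 4813, 6039 and 7538 in DMSO 3, 5, 15 and 20 and 4136, 5072, 5952 and 4624 in DOX 9, 12, 19 and 21. The groups overlapped, with a log2 fold change of −0.31 (SE 0.215, adjusted p = 0.999 by DESeq2) that ran from −0.41 without DMSO 5 to −0.20 without DMSO 20. The part of Pkd2 that is floxed was not separated in the counts. At the protein level, the paper reported less polycystin-2 in doxycycline-treated tubuloids by western blot. Some protein and some unconverted red cells remained. All 7 epithelial markers (Epcam, Cdh1, Pax8, Krt8, Krt18, Cldn4 and Cdh16) were above 0 in every library, and their summed normalised count was 40840 to 203929 in DMSO and 51274 to 125739 in DOX libraries. The sum of 9 stromal markers was 55202 to 748535 in DMSO, highest in DMSO 15, and 127220 to 188233 in DOX libraries. All 8 endothelial and macrophage markers were at 0 in some library, and their sum was 435 to 4820 in DMSO and 6.77 to 1763 in DOX libraries. In these bulk samples, fewer cells of a type and less RNA per cell cannot be told apart, and the part of cell makeup in the results was not tested.

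None of the 10 genes passed the threshold of the study's methods (adjusted p at most 0.05 and 1.5-fold, DESeq2), which 25 of 15555 genes passed (0.161%). Their smallest adjusted p was 0.294 by DESeq2, and edgeR and limma-voom called 0 of 10 as well (0% of 15562 genes each). Below that threshold, comparisons with all genes are descriptions and not tests, because the 10 genes were chosen with earlier results of these data known. The 10 genes leaned one way: 8 had a fold change above 0 and 2 below it, where 46.3% of 13899 genes with a mean normalised count of at least 50 were above 0. Their median log2 fold change was 0.39, against −0.04 over those 13899 genes. At an unadjusted p under 0.05 there were 4 of the 10 genes by DESeq2, namely Hspd1, Hspa9, Lonp1 and Afg3l2, all of them higher with DOX, beside 2.9% of the same genes (5.96% in either direction). edgeR gave 4 of 10 at that level too (3.06% of its genes, 1.56% on the higher side), as did limma-voom (3.07%). In 3 genes (Hspd1, Hspa9 and Afg3l2) every DOX library lay above every DMSO library, as did 1.98% of 14057 genes (3.21% separated in either direction), and no gene of the 10 was separated in the other direction.

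**Figure D1:**
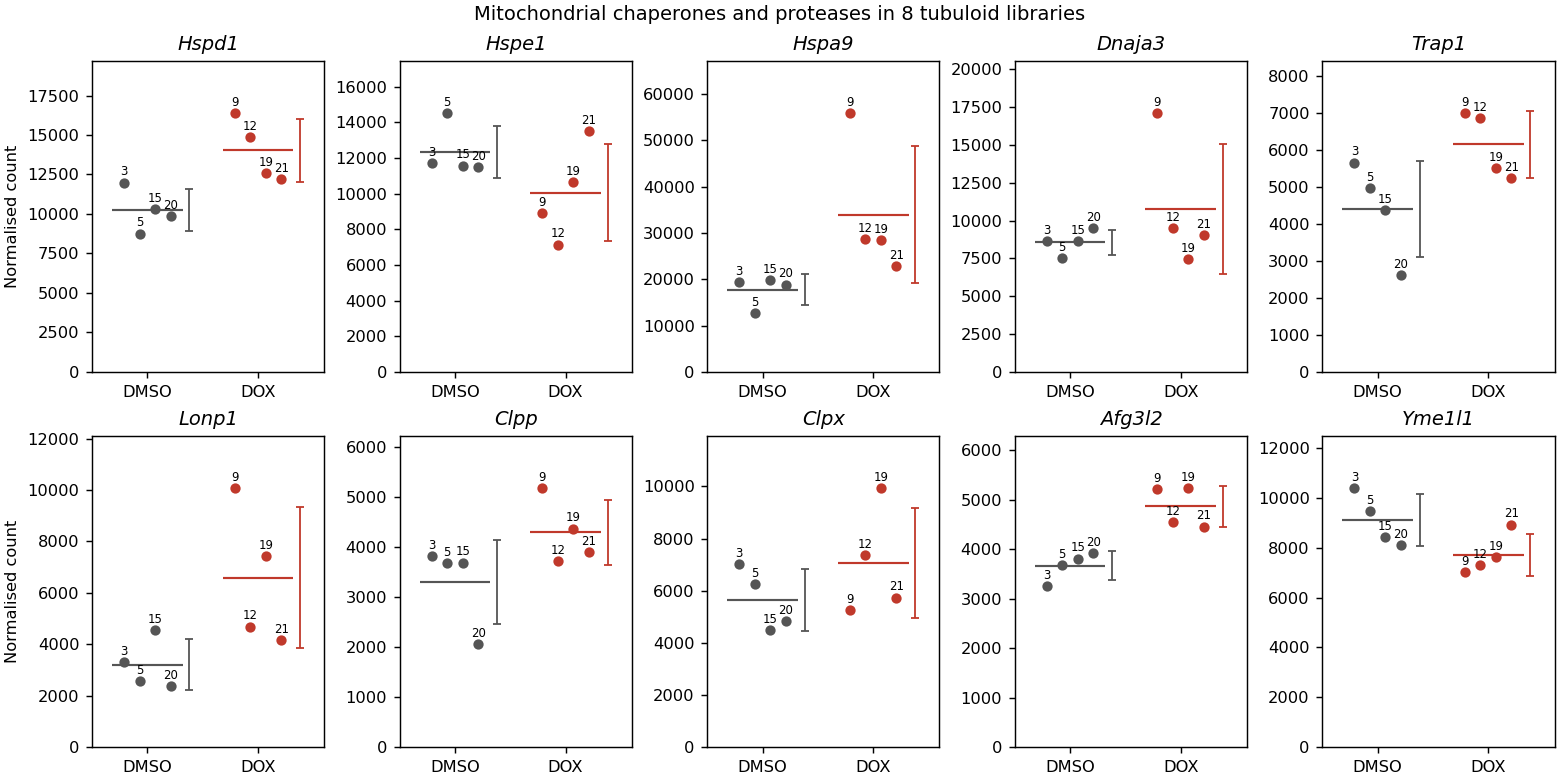
Normalised count (linear axis from 0) of each of the 10 genes in 8 libraries. Points are libraries labelled by number, lines are group means and bars are SDs (n = 4 each). The DOX points lie above all DMSO points in Hspd1, Hspa9 and Afg3l2 and overlap them in the other 7 genes.

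Hspd1, which encodes the barrel of the chaperonin, had normalised counts of 11981, 8758, 10289 and 9884 in DMSO 3, 5, 15 and 20. In DOX 9, 12, 19 and 21 it had 16402, 14864, 12586 and 12228. The lowest DOX library was just above the highest DMSO library. The means were 10228 ± 1336 and 14020 ± 1971 (SD, n = 4 each), and the log2 fold change was 0.46 (SE 0.181, 95% interval 0.10 to 0.81, DESeq2 unadjusted p = 0.012, adjusted p = 0.631). The exact two-sided permutation test over the 70 assignments of libraries gave p = 0.0286, which is the smallest it can give with 4 libraries in each group.

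Hspe1, the lid of the same chaperonin, had a fold change of the opposite sign. It had normalised counts of 11718, 14531, 11575 and 11507 in DMSO and 8892, 7146, 10645 and 13527 in DOX libraries, in the same order. DOX 9, 12 and 19 were below all 4 DMSO libraries, while DOX 21 was above 3 of them. The log2 fold change was −0.30 (SE 0.249, 95% interval −0.78 to 0.19, DESeq2 adjusted p = 0.999; exact two-sided permutation p = 0.2). It was −0.16 without DOX 12 and −0.47 without DOX 21, the latter with an unadjusted p of 0.0324 by DESeq2. The p was under 0.05 in 1 of 18 alternatives. DOX 21 was the highest DOX library, so leaving it out favours the difference. The Hspe1 transcript is short, with 768 bases against 2332 for Hspd1. Over 1147 genes with transcripts under 1000 bases the median log2 fold change was −0.19 and 30.3% were higher with DOX, whereas over 4602 genes of 2000 to 3500 bases the median was −0.00 and 49.6% were higher. The part of transcript length in the Hspe1 difference was not tested.

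Both genes lie head to head on chromosome 1 (mm10, GRCm38.p6), with Hspd1 at chr1:55077833-55088243 on the minus strand and Hspe1 at chr1:55088148-55091317 on the plus strand. Their RefSeq spans share 96 bases, because the annotated starts of Hspd1 vary, and how reads in those bases were assigned between the genes is not given in the sources used here. The stretch between their GENCODE first exons, chr1:55088025-55088131 on the plus strand, is shown because one bidirectional promoter serves both genes. Capitals mark 2 overlapping matches to 3 units of the heat shock element (GAA, TTC and GAA in turn with any 2 bases between them, or the reverse complement of that), 18 bases in all, which lie 35 bases from the Hspd1 start and 56 bases from the Hspe1 start.
Hspd1-Hspe1: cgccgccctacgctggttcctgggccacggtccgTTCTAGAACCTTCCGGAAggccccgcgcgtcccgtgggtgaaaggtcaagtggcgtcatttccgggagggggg

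That 3-unit motif occurred on either strand in 0.603% of 32851 RefSeq promoter windows of 300 bases (250 before and 50 after a start, GRCm38.p6). A match describes the letters and not the binding of a factor. Windows were found for 8 of the 10 genes, and Hspd1 and Hspe1 were the only genes among those 8 with the motif.

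Hspd1 over Hspe1 counts was 1.02, 0.603, 0.889 and 0.859 in DMSO 3, 5, 15 and 20 and 1.84, 2.08, 1.18 and 0.904 in DOX 9, 12, 19 and 21. DOX 21 fell among the DMSO values, and the other 3 DOX libraries were above them. A ratio within a library is free of library size but not of transcript length. The median log2 deviation of genes of 2000 to 3500 bases exceeded that of genes under 1000 bases by 0.307, 0.43, 0.123 and −0.065 in DOX 9, 12, 19 and 21, and by 0.089, 0.029, −0.19 and 0.193 in DMSO 3, 5, 15 and 20. This gap had the same order as the chaperonin ratio in the DOX libraries but not in the DMSO libraries. Among the latter, DMSO 20 had the largest gap and DMSO 3 the highest ratio. The part of this gap in the ratio and in the correlation was not tested. The mean log2 ratio was 0.78 higher with DOX (exact two-sided permutation p = 0.0571, adjusted p = 0.114 over the 6 partner ratios tested). It was 0.999 higher without DOX 21, the library that fell among the DMSO values, and 0.60 higher without DOX 12. Over the 8 libraries the levels of the chaperonin pair were inversely related (Pearson r = −0.79, exact permutation p = 0.0188, adjusted p = 0.0562; Spearman rho = −0.74, exact p = 0.0458, adjusted p = 0.137; r = −0.67 without DMSO 5 and DOX 9, the libraries farthest from the median Hspd1 level). Hspd1 does not overlap between the groups, so this pooled value carries the group difference. With the group means removed, r was −0.71 (exact permutation within groups, p = 0.0625, adjusted p = 0.125 over the 6 pairs).

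**Figure D2:**
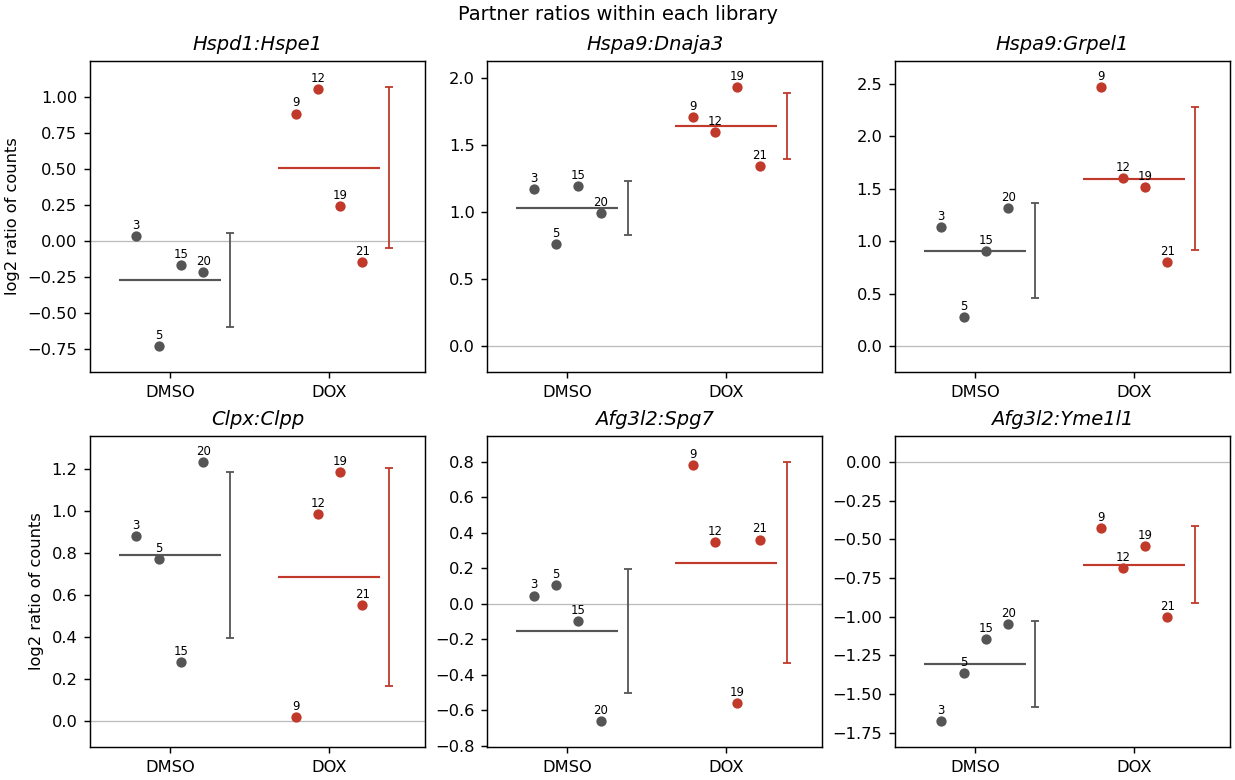
Log2 ratio of counts of 6 partner pairs in each library (points, labelled by number), with group means (lines) and SDs (bars, n = 4 each). The groups do not overlap for Hspa9:Dnaja3 and Afg3l2:Yme1l1, and Hspd1:Hspe1 is higher in 3 of 4 DOX libraries than in any DMSO library.

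Hspa9, the mitochondrial Hsp70, had normalised counts of 19400, 12700, 19768 and 18839 in DMSO and 55891, 28672, 28438 and 22825 in DOX libraries. All 4 DOX values were above all 4 DMSO values, and DOX 9 stood far above the rest. The means were 17677 ± 3340 and 33957 ± 14871, a log2 fold change of 0.94 (SE 0.346, 95% interval 0.26 to 1.62, DESeq2 unadjusted p = 0.00649, adjusted p = 0.483; exact two-sided permutation p = 0.0286). Without DOX 9 the log2 fold change was 0.59. The gene lies on chromosome 18, from base 34937414 to 34954351.

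Dnaja3, the J-protein that stimulates Hsp70 in the matrix, had normalised counts of 8634, 7492, 8636 and 9494 in DMSO and 17112, 9481, 7453 and 9021 in DOX libraries. Apart from DOX 9 the libraries of both groups were intermingled. Its log2 fold change was 0.33 (SE 0.306, adjusted p = 0.999 by DESeq2) and 0.01 without DOX 9. The ratio of Hspa9 to Dnaja3 counts was 2.25, 1.69, 2.29 and 1.98 in DMSO and 3.27, 3.02, 3.81 and 2.53 in DOX libraries, with no overlap. Dnaja3 counts sum a pair of nearly identical transcripts whose reads are counted for both, which lowers this ratio in every library. The mean log2 ratio differed by 0.62 (exact two-sided permutation p = 0.0286, the smallest possible, adjusted p = 0.0857). Their pooled correlation rested on DMSO 5 and DOX 9, since Pearson r was 0.81 with them (exact permutation p = 0.033, adjusted p = 0.0661; Spearman rho = 0.38, exact p = 0.36) and −0.33 without them. With the group means removed it was 0.87 (exact permutation within groups, p = 0.0365, adjusted p = 0.109). That value includes DMSO 5, the lowest DMSO library for both genes, and DOX 9, the highest DOX library for both, and was not computed without them. Against Grpel1, the nucleotide exchange factor of the same Hsp70, the mean log2 ratio of Hspa9 was 0.69 higher with DOX and the groups overlapped (exact permutation p = 0.171, adjusted p = 0.257). That difference was 0.40 without DOX 9 and 0.955 without DOX 21, which lay within the DMSO range. Grpel1 itself had a log2 fold change of 0.19 (DESeq2 unadjusted p = 0.352) that was 0.07 without DOX 21. Dnaja3 lies at chr16:4684070-4707695.

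Trap1, the Hsp90 of the matrix, had normalised counts of 5651, 4966, 4370 and 2611 in DMSO and 6998, 6861, 5504 and 5244 in DOX libraries. DOX 9 and 12 were above every DMSO library, and DMSO 20 was the lowest of all. The log2 fold change was 0.48 (SE 0.289, 95% interval −0.08 to 1.05, DESeq2 adjusted p = 0.968; exact permutation p = 0.0857), and 0.30 without DMSO 20. Trap1 (chr16:4039971-4077840) shares 54 bases with its neighbour Dnase1, where the assignment of reads is likewise not given.

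The largest fold change of the 10 genes was that of Lonp1, the ATP-dependent LON protease of the matrix. Its normalised counts were 3317, 2550, 4563 and 2371 in DMSO and 10083, 4685, 7426 and 4144 in DOX libraries. The groups touched, with DMSO 15 above DOX 21. The means were 3200 ± 997 and 6585 ± 2739, a 2.06-fold difference (log2 1.04, SE 0.384, 95% interval 0.29 to 1.79, DESeq2 unadjusted p = 0.00671, adjusted p = 0.483; exact two-sided permutation p = 0.0571). The log2 fold change was 0.76 without DOX 9 and 1.26 without DMSO 15, and the latter setting gave the smallest adjusted p (0.0996, DESeq2) of any gene of the 10 in any of 18 alternative analyses. Lonp1 lies on chromosome 17 (chr17:56614297-56626903, minus strand).

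The 250 bases upstream of Lonp1, chr17:56626904-56627153 read on the minus strand, are shown because ATF-family factors, whose own transcripts are described further on, bind the letters TGACGT. Capitals mark its single match (TGACGT or its reverse complement ACGTCA), which lies 1 base before the annotated start.
Lonp1: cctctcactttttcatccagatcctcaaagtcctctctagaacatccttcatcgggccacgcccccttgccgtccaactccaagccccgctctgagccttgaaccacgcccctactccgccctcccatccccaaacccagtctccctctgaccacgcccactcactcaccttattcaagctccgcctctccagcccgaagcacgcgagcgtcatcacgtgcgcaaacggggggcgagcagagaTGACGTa

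Those 6 letters were found in 7.51% of the 32851 windows, and among the 8 genes with a window in Lonp1 and Trap1. The composite TGATGNAA (reverse TTNCATCA), named after CHOP and ATF factors, was in 3.97% of windows and in none of the 8 genes. The shorter TGCAAT (reverse ATTGCA) was in 8.4% of windows and in those of Hspd1 and Hspe1.

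ClpXP is made of a barrel-shaped peptidase, Clpp, and an unfolding ring, Clpx. Clpp had normalised counts of 3815, 3676, 3691 and 2056 in DMSO and 5187, 3714, 4375 and 3907 in DOX libraries. DMSO 20 was far below the rest, and DOX 12 lay between DMSO 3 and DMSO 15. The log2 fold change was 0.38 (SE 0.267, adjusted p = 0.999 by DESeq2), and 0.20 without DMSO 20. Clpp lies on chromosome 17 near Lonp1 (chr17:56990264-56996371).

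Clpx had normalised counts of 7025, 6266, 4481 and 4832 in DMSO and 5250, 7355, 9943 and 5730 in DOX libraries, which were interleaved. Its highest library was DOX 19, and its log2 fold change of 0.32 (SE 0.292, adjusted p = 0.999 by DESeq2) was 0.12 without it. The log2 ratio of Clpx to Clpp differed by −0.11 between the groups (exact permutation p = 0.771) and changed sign when DMSO 20 or DOX 9 was left out. Clpx counts also sum a pair of nearly identical transcripts whose reads are counted for both. The span of Clpx (chr9:65294251-65330658) contains an annotated pseudogene.

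Fold changes of the inner membrane proteases had opposite signs. Afg3l2, which forms the m-AAA protease facing the matrix, had the tightest groups of the 10 genes on the count scale, with 3253, 3678, 3808 and 3919 in DMSO and 5222, 4544, 5240 and 4459 in DOX libraries. All DOX values were above all DMSO values. The means were 3665 ± 292 and 4866 ± 423, and the log2 fold change was 0.41 (SE 0.134, 95% interval 0.15 to 0.67, DESeq2 unadjusted p = 0.00221, adjusted p = 0.294; exact two-sided permutation p = 0.0286). By edgeR the unadjusted p was 0.0361. Afg3l2 lies on chromosome 18, from base 67404764 to 67449192.

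Yme1l1, the i-AAA protease facing the intermembrane space, had normalised counts of 10407, 9469, 8422 and 8122 in DMSO and 7032, 7318, 7630 and 8933 in DOX libraries. DOX 9, 12 and 19 were below all DMSO libraries and DOX 21 was not. The log2 fold change was −0.24 (SE 0.158, 95% interval −0.55 to 0.07, DESeq2 adjusted p = 0.996; exact permutation p = 0.0857). It was −0.31 without DOX 21, with an unadjusted p of 0.0483 by DESeq2, and −0.16 without DMSO 3. The p was under 0.05 in 1 of 18 alternatives and was highest, at 0.476, by limma on log2(TPM + 1). DOX 21 was the highest DOX library, so leaving it out favours the difference. The annotated span of Yme1l1 (chr2:23155442-23199260) shares 583 bases with its neighbour Mastl, and how reads there were assigned is not given in the sources used here.

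The ratio of Afg3l2 to Yme1l1 counts was 0.313, 0.388, 0.452 and 0.483 in DMSO and 0.743, 0.621, 0.687 and 0.499 in DOX libraries. The groups did not overlap, although DMSO 20 and DOX 21 were close. The mean log2 ratio differed by 0.64 (exact two-sided permutation p = 0.0286, the smallest possible, adjusted p = 0.0857). Over the 8 libraries the levels of these proteases were inversely related (Pearson r = −0.85, exact permutation p = 0.00888, adjusted p = 0.0533; Spearman rho = −0.86, exact p = 0.0107, adjusted p = 0.0643; r = −0.76 without DMSO 3 and DOX 19, the libraries farthest from the median Afg3l2 level). This pooled value again carries a group difference, and with the group means removed r was −0.78 (exact permutation within groups, p = 0.0278, adjusted p = 0.109). For Afg3l2 against Spg7 (paraplegin, its partner subunit in the m-AAA protease) the log2 ratio differed by 0.38 with overlapping groups (exact permutation p = 0.286, adjusted p = 0.343). Spg7 had a log2 fold change of 0.08 (DESeq2 unadjusted p = 0.842) that changed sign to −0.32 without DOX 19. The remaining correlations, Hspa9 with Grpel1, Clpx with Clpp and Afg3l2 with Spg7, had Pearson r of 0.07, 0.35 and 0.29 (exact permutation p = 0.861, 0.373 and 0.481; Spearman rho 0.12, 0.36 and 0.31, exact p = 0.793, 0.389 and 0.462). With the group means removed, r was −0.43, 0.15 and 0.58 (exact permutation within groups, p = 0.271, 0.741 and 0.181), so that of Hspa9 with Grpel1 changed sign.

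**Figure D3:**
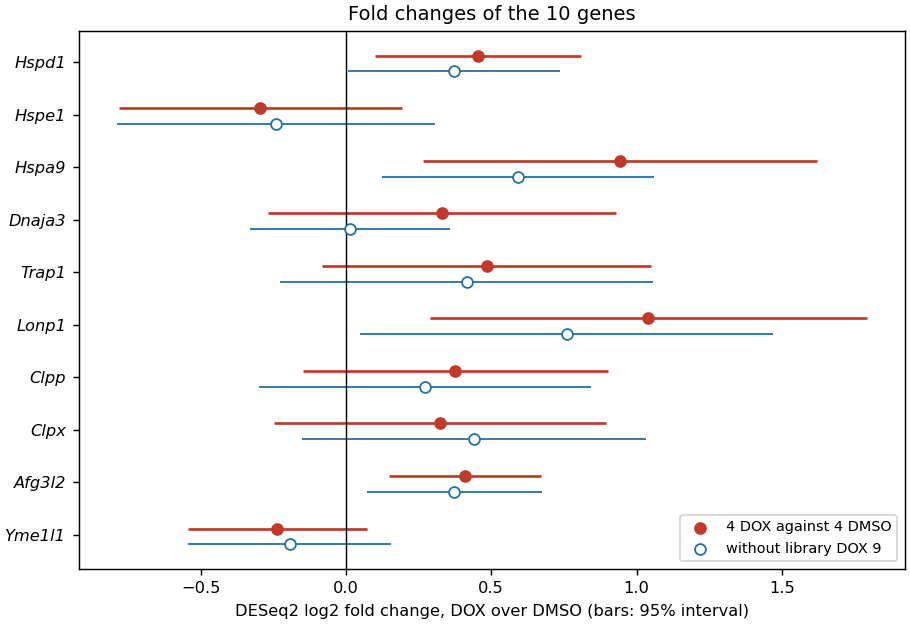
DESeq2 log2 fold change (DOX over DMSO, x axis) of each gene with its 95% interval, over all 8 libraries (filled) and without DOX 9 (open). Hspd1, Hspa9, Lonp1 and Afg3l2 have intervals above 0 in both, and Dnaja3 moves from 0.33 to 0.01.

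DOX 9 had the strongest pattern. It was the highest library for 6 of the 10 genes, while it was the highest for 11% of 14057 genes with a mean normalised count of at least 50. The number of the 10 genes lying above all 4 DMSO libraries was 7 in DOX 9, 6 in DOX 12, 6 in DOX 19 and 4 in DOX 21. Of the same 14057 genes, 17.4%, 13.2%, 22.3% and 14.3% lay above all DMSO libraries in these 4 libraries. Without DOX 9 the group kept 8 of 10 fold changes above 0 (45.4% of 13932 genes), a median of 0.37 (−0.05 over those genes) and 4 genes at an unadjusted p under 0.05, again Hspd1, Hspa9, Lonp1 and Afg3l2 and all higher (2.43% of genes). None passed the adjusted threshold in that setting.

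Levels between genes are compared in TPM, the deposited measure that scales counts for transcript length and for the library. Over the 8 libraries Hspe1 was the most abundant at 354 ± 81.4 TPM (SD, n = 8), followed by Hspa9 at 207 ± 107, Hspd1 at 127 ± 32.7, Dnaja3 at 91.2 ± 30.2 and Clpp at 76.5 ± 18. Trap1 at 56.3 ± 17.8, Clpx at 54.3 ± 16.4, Yme1l1 at 44.7 ± 6.29, Lonp1 at 39.9 ± 21.1 and Afg3l2 at 34.1 ± 7.16 TPM completed the order of means over both groups. That order hides a difference at its lower end, where Lonp1 was lowest in DMSO libraries (25.0 TPM, against 28.5 for Afg3l2) and above Afg3l2 and Yme1l1 in DOX libraries (54.8 TPM, against 39.7 and 42.3). The lowest place in DMSO libraries holds with the transcripts of Clpx summed. A single transcript of Clpx (26.3, 29.7, 16.6 and 21.8 TPM in DMSO 3, 5, 15 and 20) had a lower mean than Lonp1. Of the steps between neighbours, 3 held in 8 of 8 libraries and exceeded the spread of the ratio, those from Hspa9 to Hspd1, from Hspd1 to Dnaja3 and from Clpp to Trap1, and the other neighbours did not differ beyond their spread. Dnaja3 and Clpx each have a pair of nearly identical transcripts whose reads are counted for both, and with a single transcript their levels were 44.6 and 27.0 TPM, below Trap1 and below Afg3l2. The ranks of the 10 genes ran from 474 to 4633 among 13675 genes with a mean of at least 1 TPM.

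**Figure D4:**
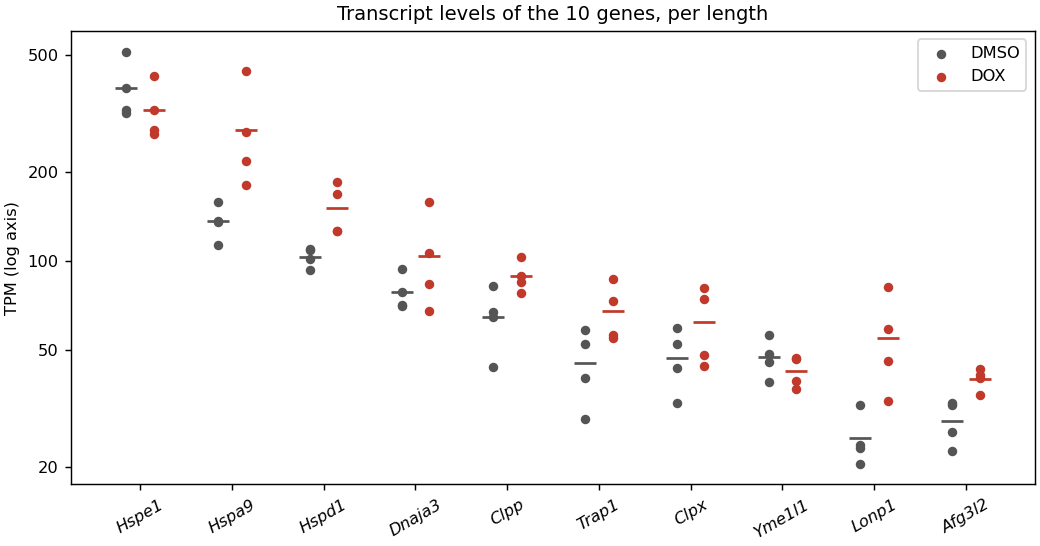
TPM of the 10 genes per library (points, log axis) with group means (lines), ordered by the mean over 8 libraries. Hspe1 has the highest mean over both groups at 354 TPM and Afg3l2 the lowest at 34.1 TPM, while in DMSO libraries alone Lonp1 is below Afg3l2.

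The TPM values showed the same separations. Hspd1 was at 103 ± 7.64 TPM in DMSO and 151 ± 29.9 TPM in DOX libraries, Hspa9 at 136 ± 18.8 and 278 ± 115, and Afg3l2 at 28.5 ± 4.97 and 39.7 ± 3.39 (SD, n = 4 each). Lonp1 was at 23.8, 23.2, 32.4 and 20.5 TPM in DMSO and 81.4, 45.7, 58.5 and 33.5 TPM in DOX libraries, so on this scale its groups did not overlap either. With limma on log2(TPM + 1), Afg3l2 was at an unadjusted p of 0.0505.

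The genes whose levels followed Hspd1 most closely over the 8 libraries, out of 14056, were Hsp90ab1 (Pearson r = 0.959), Pltp (0.946), Nucb1 (0.939), Pus7 (0.933) and Cox10 (0.930). These values are descriptions over 8 libraries that share the group difference. Hspa9 held rank 12 in that order (r = 0.921) and Lonp1 rank 131 (r = 0.801). Trap1, Dnaja3, Afg3l2 and Clpp ranked 334, 484, 503 and 858, and Clpx ranked 4167. Yme1l1 and Hspe1 were near its other end, at ranks 13341 (r = −0.62) and 13911 (r = −0.79).

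Other gene lists of the same organelle had medians nearer to that of all genes, a difference from the 10 genes that was not tested. Of 13 further chaperones and assembly factors, 7 were higher and 6 lower with DOX, with a median log2 fold change of 0.03. The lowest unadjusted p-values there were those of Dnajc19, a J-protein of the import motor, at −0.37 (DESeq2 unadjusted p = 0.0809) and Clpb, a disaggregase, at 0.38, which was 0.13 without DOX 9. Of 16 further proteases and peptidases, 12 were higher and 4 lower (median 0.08), with Lactb at −0.60 and Afg3l1, a close relative of Afg3l2, at 0.55 (0.26 without DMSO 20). Afg3l1 had 6910, 6810, 6907 and 1912 normalised counts in DMSO and 9121, 8274, 8450 and 7213 in DOX libraries, which did not overlap. Of 17 import channel genes, 8 were higher and 9 lower (median −0.05; 13 were higher without DMSO 15), with Timm22 at 0.28 (DESeq2 unadjusted p = 0.0343) and Tomm40 at 0.40 (0.25 without DMSO 20, 0.59 without DMSO 15). Of 11 reported protease substrates, 6 were higher and 5 lower (median 0.01), with Pink1 at 0.40 (0.19 without DOX 21). No gene of these 4 lists was called, and their shares at an unadjusted p under 0.05 were 0 of 13, 0 of 16, 1 of 17 and 0 of 11, beside 5.96% of genes in either direction.

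Among 17 regulators of the response, 12 were higher and 5 lower (median 0.19), none was called and 1 of the 16 with a p (all but Ddit3) was at an unadjusted p under 0.05, a share near the 5.96% of all genes. The count at that level ran from 1 to 4 when 1 library was left out, with 4 without DMSO 15 and 2 without DOX 9. The share of all genes without DMSO 15 was not compared with the 4, which are not read as a result about the regulators. Ddit3, which encodes the stress factor CHOP, had normalised counts of 2996, 2495, 3694 and 1749 in DMSO and 23322, 4535, 5302 and 4596 in DOX libraries. All DOX libraries were above all DMSO libraries, and DOX 9 was far above the other 3. The log2 fold change was 1.79 (SE 0.61), for which DESeq2 gave no p because of the outlying DOX 9 value, and with that filter off the unadjusted p was 0.00338 and the adjusted p 0.365. By edgeR the unadjusted p of Ddit3 was 0.0135. Without DOX 9 the log2 fold change of Ddit3 was 0.82 (DESeq2 unadjusted p = 0.0086, adjusted p = 0.681). Atf4, the transcription factor of the integrated stress response, was at 18811, 15191, 22358 and 16706 in DMSO and 42738, 19565, 23657 and 22851 in DOX libraries, a log2 fold change of 0.57 (DESeq2 unadjusted p = 0.0649, adjusted p = 0.92) that was 0.27 without DOX 9 (unadjusted p = 0.191). Atf5, the factor most directly tied to the mitochondrial response in mammals, was at 625, 596, 1441 and 342 in DMSO and 1456, 845, 1206 and 1101 in DOX libraries (log2 fold change 0.62, DESeq2 unadjusted p = 0.193), and its log2 fold change ran from 0.37 without DMSO 20 to 1.15 without DMSO 15. Nrf1 was at 8931 to 10625 in DMSO and 11502 to 12647 in DOX libraries, with no overlap (log2 fold change 0.25, DESeq2 unadjusted p = 0.0204).

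Both secreted signals of mitochondrial stress varied widely within the groups. Fgf21 had 118, 20.2, 523 and 0 normalised counts in DMSO 3, 5, 15 and 20 and 487, 33.4, 0 and 32.5 in DOX 9, 12, 19 and 21. Gdf15, with 6044, 9563, 1580 and 3663 in DMSO and 8521, 3613, 4049 and 2003 in DOX libraries, gave −0.20 as its log2 fold change (DESeq2 unadjusted p = 0.751). Without DOX 9 the log2 fold changes were −0.70 for Gdf15 and −2.91 for Fgf21, against −0.26 for Fgf21 with it, they were 0.28 for Gdf15 without DMSO 5 and 1.59 for Fgf21 without DMSO 15, and 0 to 2 of this pair were higher with DOX when 1 library was left out. Of 12 genes of mitochondrial mass and biogenesis, 11 were higher with DOX (7 without DMSO 20). Their median was 0.12, and it was 0.09 without DOX 9 and 0.21 without DMSO 5. Nrf1 (also in this list) and the helicase Twnk (log2 fold change 0.60, 0.36 without DMSO 20, DESeq2 unadjusted p = 0.122) had the smallest p-values.

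Of 14 cytosolic chaperones, 5 were higher and 9 lower (median −0.11, which was −0.19 without DOX 9 and −0.01 without DOX 19). Without DMSO 20 and DOX 19, 9 were higher. Among the 14 were Hsp90ab1 at 0.32 (DESeq2 unadjusted p = 0.0885) and Hspa4 at 0.37. Of 12 endoplasmic reticulum chaperones, all 12 were higher (median 0.57) and none was called. At an unadjusted p under 0.05 there were 3 of the 12, all higher, beside 2.9% of all genes, and 1 without DMSO 5. Herpud1 had normalised counts of 4800, 3744, 5594 and 3282 in DMSO and 23532, 6482, 5150 and 8532 in DOX libraries. Pdia4, a disulfide isomerase, was at 19121 to 29277 in DMSO libraries and at 107235 in DOX 9, against 25802 to 34301 in the other DOX libraries. Without DOX 9 the list had 6 of 12 genes higher, 1 at an unadjusted p under 0.05 (5.15% of all genes) and a median of −0.01, and Herpud1 and Pdia4 had log2 fold changes of 0.63 and 0.39. The difference between this list and the mitochondrial genes was not tested.

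**Figure D5:**
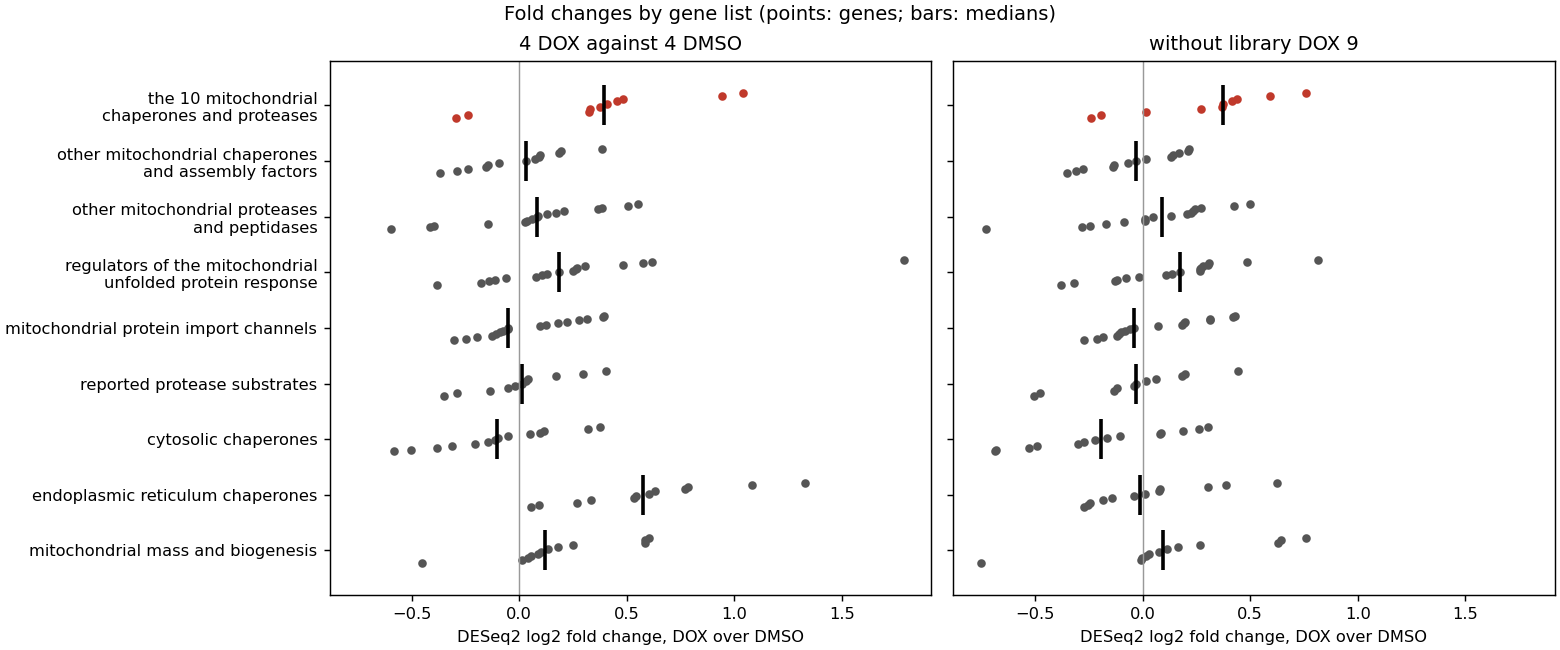
DESeq2 log2 fold changes (DOX over DMSO, x axis) of the 10 genes (red) and of 8 other gene lists (grey), with list medians as bars, over all 8 libraries (left) and without DOX 9 (right). The median of the endoplasmic reticulum chaperones moves from 0.57 to −0.01, and that of the 10 genes from 0.39 to 0.37.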

How the data were processed

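Libraries were made by the authors with SMART-Seq v4 after poly-A selection, and the submitters' processing notes name STAR, featureCounts and DESeq2 (versions not given in the sources used here) on mm10 (GRCm38). The deposited count gives reads per RefSeq transcript as whole numbers, and the deposited FPKM and TPM are these counts scaled by the authors by length and library. Counts and TPM were summed by gene symbol, so reads lying in several isoforms appeared once for each. FPKM was used only to derive transcript lengths. No column of another sample was present. Strand and multimapping settings were not given in the sources used here. Pseudogenes annotated for Hspe1 (7), Hspd1 (5) and Hspa9 (1) had no row in the files, so reads shared with them are uncertain.

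DOX was compared with DMSO on counts of all genes by the Wald test of DESeq2 1.42.0 (R 4.3.3, no covariate, alpha 0.1, Benjamini-Hochberg adjustment), with edgeR 4.0.16 quasi-likelihood and limma 3.58.1 voom beside it. Single genes and ratios were tested by exact two-sided permutation of libraries, on log2 values with 1 added for levels. Alternatives were TMM size factors, a filter of 10 counts in 4 libraries, the Cook's distance filter off, 1 transcript per gene, low detection or sex as covariates, TPM, and leaving out libraries. Correlations with the group means removed were added after seeing the data. Scripts were tested on simulated data. The members and lists were chosen with earlier results of these data known. Of each list the genes with the 2 smallest p-values at a mean normalised count of at least 50 are named (1 of them is not reported here), and Grpel1, Spg7, Atf5, Atf4, Ddit3, Fgf21, Gdf15 and Pkd2 whatever their values. Promoter windows and gene spans are from RefSeq (GRCm38.p6) and the first exons of Hspd1 and Hspe1 from GENCODE M21.

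Marker genes were 7 epithelial, 9 stromal (Col1a1, Acta2 and others), 8 endothelial and macrophage (Ptprc, Cd68 and others) and 7 of proximal tubule and thick limb (Aqp1, Slc12a1 and others). The last set summed to 836 to 2287 normalised counts in DMSO and 1079 to 1501 in DOX libraries, and 3 of 7 were higher with DOX. Of the epithelial, stromal, and endothelial and macrophage sets, 1, 1 and 2 genes were higher, with medians of −0.25, −1.14 and −1.08 (log2), or −0.58, −1.69 and −1.02 without DOX 9. Without DMSO 15 the stromal median was 0.01, with 5 of 9 genes higher, and the epithelial median was −0.56, which was −0.04 without DMSO 3, −0.05 without DMSO 5 and −0.09 without DOX 21. Without DMSO 5 the endothelial and macrophage median was −0.31.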

Additional observations from a re-analysis of the deposited data

Results flagged for a closer look

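In 3 of 34 groups of 4 libraries examined, 1 library lay far from the other 3 by Dixon's ratio of its gap to the whole range (the 95% critical value), where chance alone gives about 1 in 20, or 1.7. Hspe1 was high in DMSO 5, at a log2 normalised count of 13.83 against 13.49 to 13.52 in the other DMSO libraries (ratio 0.922). Hspa9 was low in the same library, at 13.63 against 14.20 to 14.27 (ratio 0.891), and without DMSO 5 its unadjusted p was 0.024, the highest of all alternatives. Clpp was low in DMSO 20, at 11.01 against 11.84 to 11.90 (ratio 0.94), and its log2 fold change was 0.20 without that library.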

How the results depend on the processing

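All 10 genes kept their direction in each of 18 alternatives and none was called in any. Hspd1 and Hspa9 stayed at an unadjusted p under 0.05 in all 18, and Lonp1 and Afg3l2 in 17. Leaving out 1 library gave 4 to 6 of the 10 genes at that level, the 6 without DOX 21 including Hspe1 and Yme1l1, which were lower with DOX. The share of all genes at that level without DOX 21 was not compared with this count. More genes of the whole set were also called in that setting (44, against 25), so the 6 are not read as a result about the 10 genes. The number of all genes called was 25 and became 48 with the Cook's distance filter off, 0 with edgeR and with limma-voom, 41 with low detection and 43 with sex as covariates, 51 without DMSO 20 and DOX 19, and 14 to 74 when 1 library was left out (14 without DMSO 3, 74 without DMSO 15, 45 without DMSO 20 and 44 without DOX 21). The cause was not tested.

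With 1 library left out, the difference in mean log2 ratio ran from 0.60 to 0.999 for Hspd1:Hspe1, 0.52 to 0.72 for Hspa9:Dnaja3, 0.40 to 0.96 for Hspa9:Grpel1, 0.20 to 0.65 for Afg3l2:Spg7 and 0.52 to 0.76 for Afg3l2:Yme1l1. That for Clpx:Clpp ran from −0.28 to 0.12 and reversed without DMSO 20 (0.042) and without DOX 9 (0.12). Without DOX 21, Hspd1:Hspe1 (0.999), Hspa9:Dnaja3 (0.717), Hspa9:Grpel1 (0.955) and Afg3l2:Yme1l1 (0.756) each reached an exact permutation p of 0.0286, the smallest possible, and an adjusted p of 0.0429. DOX 21 had the lowest DOX value of each of these ratios, so leaving it out favours separation and these p-values add no support. Without DMSO 20 and DOX 19, Pearson r was 0.957 for Hspa9:Dnaja3 (exact permutation p = 0.00139, adjusted p = 0.00833) and reversed for Hspa9:Grpel1 (−0.085), Clpx:Clpp (−0.298) and Afg3l2:Spg7 (−0.189). For Hspa9:Dnaja3 this setting kept DMSO 5 and DOX 9, without which r was −0.33. It also dropped DOX 19, the library with the lowest Dnaja3 level, so the p-value of that pair adds no support. With group means removed, an alternative chosen after seeing the data, r reversed for Hspa9:Grpel1 (−0.428) and no pair passed an adjusted p of 0.05. No paired analysis was possible because the library numbers were not shared between the groups.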
